A study of Mus musculus with 2 samples.

Results

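Oligodendrocyte precursor cells (OPCs) with few unique molecular identifiers (UMIs, each the tag of 1 captured RNA molecule) of mitotic genes, called non-cycling here, were taken from single-cell RNA-seq of whole mouse spinal cord at postnatal day 4. A cell was counted as a non-cycling OPC if it had a UMI in 3 or more of the 6 OPC markers Pdgfra, Cspg4, C1ql1, Lhfpl3, Pcdh15 and Matn4. It also had a UMI in at most 1 of Bmp4, Enpp6, Aqp4, Cx3cr1, Cldn5 and Dcn, which mark committed precursors, newly formed oligodendrocytes, astrocytes, microglia, endothelial cells and fibroblasts, and fewer than 3 summed UMIs of 10 mitotic genes. Of 17043 kept cells, 2946 met this rule, namely 1582 labelled SMA and 1364 labelled Con. The levels of these 22 genes chose the cells, and their values are given below only as a description.

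The study compared the spinal cord of mice with severe spinal muscular atrophy (SMA) with that of heterozygous controls. The group labelled SMA had the genotype (mSmn-/-, hSMN22tg/0) and the group labelled Con the genotype (mSmn+/-, hSMN22tg/0), both on the FVB strain. Both therefore carried the human SMN2 transgene of the Taiwanese model, which makes a low amount of full-length SMN protein, and the groups differed in whether 1 mouse Smn allele was intact. Per the study's methods each group was 1 library made from pooled littermates, whose sexes are not given. With 1 library per group no difference could be set against a spread between animals, so no test was run, and every interval below is a 95% interval for counting error only.

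The 26921 barcodes labelled SMA held 85872075 UMIs and the 25419 labelled Con held 97894084. The libraries had 8163 barcodes in common, and among cells that passed the filter (200 to 4000 genes, under 10% mitochondrial UMIs) these were removed from the library labelled SMA, which left 6787 cells there and 10256 labelled Con. Of the non-cycling OPCs labelled Con, 1153 (84.5%) had a barcode that was also listed in the library labelled SMA. Depth was close between the groups, where the median OPC held 5551.5 UMIs of 2523 genes in the SMA library and 5755.5 UMIs of 2593.5 genes in the Con library, and median mitochondrial shares of 6.91% and 6.70%. The summed OPCs held 9195284 and 8289935 UMIs, and levels are given as CPM, counts scaled to the same total in each sum. The libraries also differed in sex-linked RNA. UMIs of a Y chromosome gene without Xist were found in 979 OPCs labelled SMA and 332 labelled Con, and Xist without a Y gene in 2 and 784. Smn1, the gene altered in this model, was at 66.7 CPM labelled SMA and 72.3 CPM labelled Con, a log2 ratio of -0.12 (-0.28 to 0.05). Where these 3′ tags lie relative to the altered part of Smn1 is not known here, so the value does not check the labels.

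OPCs arise in the ventral and later the dorsal ventricular zone of the embryonic cord, spread through the tissue and divide in response to platelet-derived growth factor (PDGF), which they bind through the receptor encoded by Pdgfra. They are recognised by the proteoglycan NG2, the product of Cspg4, receive synapses from neurons, and keep differentiation in check until they leave the cell cycle. On commitment they switch off Pdgfra and Cspg4, pass through a short stage marked by Gpr17, Bmp4, Enpp6 and Bcas1, and then make myelin.

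The label was checked with OPC genes that the rule did not use. Olig1, a transcription factor of the oligodendrocyte lineage, was at 1187 CPM labelled SMA and 1419 CPM labelled Con in these OPCs. In microglia-like cells, which were selected by microglial markers, it was at 69.1 and 79.8 CPM. Once every cell was thinned to 2000 UMIs, Olig1 was found in 88.9% (SMA) and 91.4% (Con) of the OPCs and in 12.04% and 13.8% of microglia-like cells, whose unthinned median depths were 6180.5 and 6186 UMIs. Sox10, which drives glial differentiation, was found in 36.8% and 41.1% of thinned OPCs against 0.89% and 1.60% of microglia-like cells. Ptprz1, a receptor-type phosphatase of OPCs and astrocytes, was found in 85.4% and 82.2% against 8.98% and 8.62%. Vcan, which encodes the matrix proteoglycan versican, was found in 27.4% and 24.0% against 1.09% and 1.38%. Each of these genes was therefore found more often in the selected cells than its free-RNA level. They did not each set OPCs apart from the classes most like them. Sox10 was found in 41.2% and 47.3% and Vcan in 20.8% and 28.0% of COP-like cells (committed precursors, selected as given below), and Ptprz1 in 68.6% and 70.5% of astrocyte-like cells. Olig1 was found in 79.6% and 78.6% of COP-like cells, and Ptprz1 in 38.8% and 44.3%, both below the shares in the OPCs. The name OPC was kept as the lineage of the cells, and their separation from committed precursors rests on the rule.

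**Figure D1:**
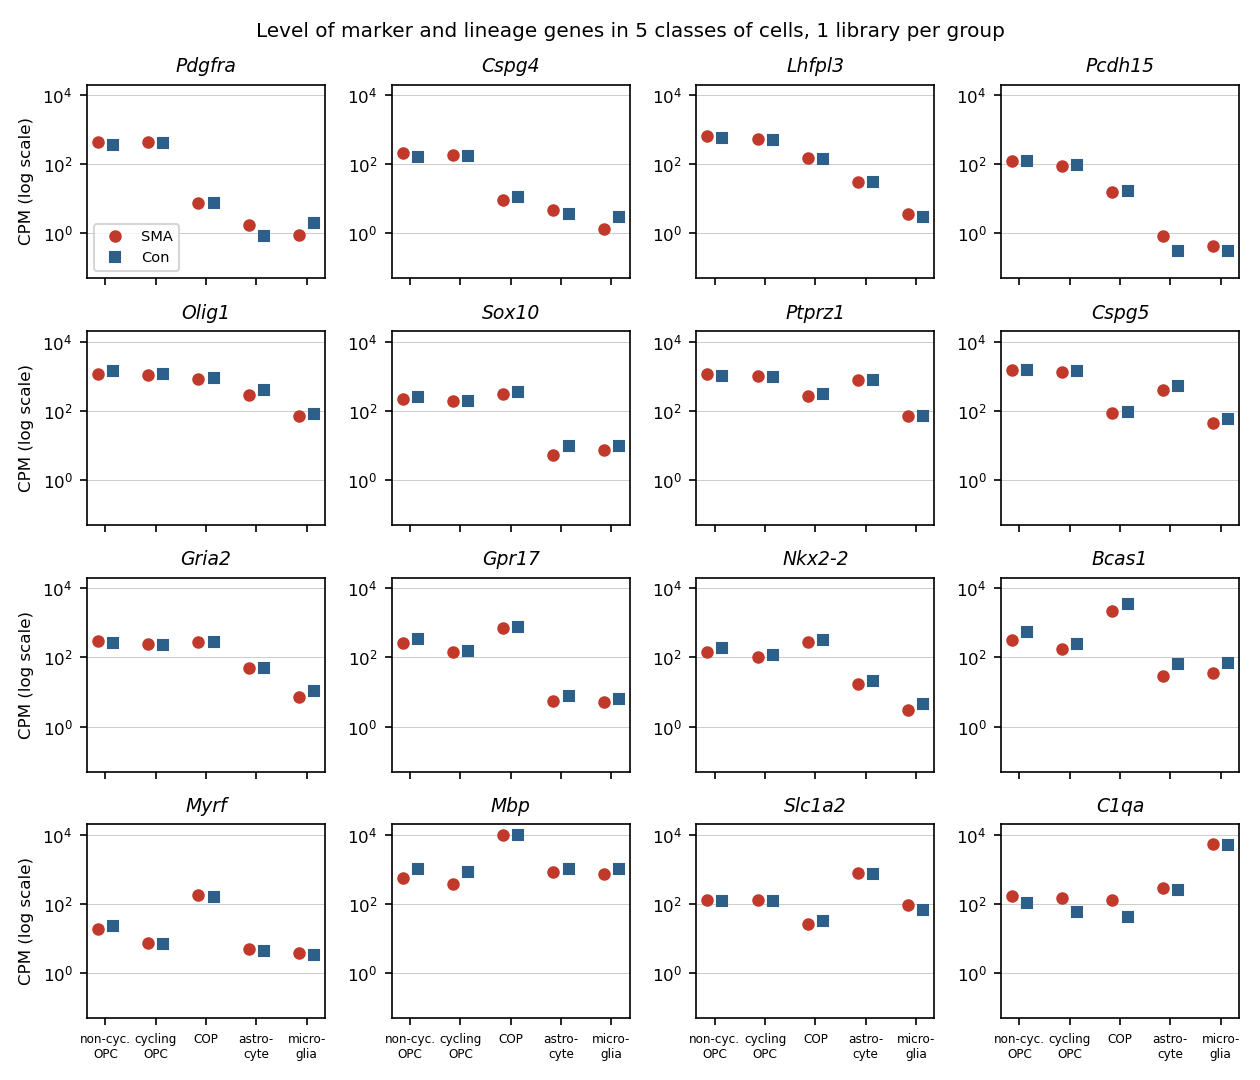
Level in CPM on a log axis of 16 genes in 5 classes of cells, with circles for the library labelled SMA and squares for the library labelled Con. Olig1 stood at 1187 and 1419 CPM in non-cycling OPCs against 69.1 and 79.8 CPM in microglia-like cells, and Bcas1 at 325 and 529 CPM against 2182 and 3493 CPM in the COP-like class.

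The genes that chose the cells were not all at the same level in the libraries. Pdgfra was at 425 CPM labelled SMA and 361 CPM labelled Con, and Cspg4 at 207 and 158 CPM. C1ql1, which encodes a secreted protein of the C1q family, was at 329 and 511 CPM, and Matn4, which encodes a matrilin, at 607 and 699 CPM. Lhfpl3 was at 650 and 552 CPM and Pcdh15, a protocadherin gene, at 126 and 122 CPM. Of the 6 markers, 3 were found in 229 cells of each library, 4 in 406 and 355, 5 in 625 and 479, and all 6 in 322 and 301 cells labelled SMA and Con. Just outside the limit stood 177 and 242 cells with a UMI in 2 markers. Their Olig1 level was 533 and 618 CPM, while cells just inside, with 3 markers, had 1071 and 1161 CPM. Of the mitotic genes, 1095 and 919 cells had no UMI and 359 and 314 had 1. At the limit, 128 and 131 cells were just inside with 2 UMIs and 58 and 65 just outside with 3.

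Non-cycling OPCs made up 23.3% (22.3 to 24.3) of the kept cells in the SMA library and 13.3% (12.6 to 14.0) in the Con library, a log2 ratio of shares of 0.81 (0.71 to 0.90). Cycling OPCs, which met the same rule with 3 or more mitotic UMIs, made up 8.40% and 5.29%, a log2 ratio of 0.67 (0.50 to 0.83). COP-like cells, selected by 3 or more of Bmp4, Enpp6, Neu4, Gpr17 and Tcf7l2 and not counted as OPCs, made up 3.85% and 6.39%, a log2 ratio of -0.73 (-0.93 to -0.53). Astrocyte-like and microglia-like cells had ratios of 0.41 and 0.54, so 4 of the 5 classes took a larger share of the kept cells labelled SMA. With the shared barcodes left in the library labelled SMA, the ratio for non-cycling OPCs was 0.23. It was 0.45 with cells of at least 3000 UMIs, 0.36 with all cells thinned to 2000 UMIs, 0.85 with 4 or more markers and 1.72 with a mitochondrial limit of 5%. The share was thus higher in the library labelled SMA in each case, by an amount that moved with the barcodes counted. The kept cells in the denominators were unlike in depth, as 194 of 6787 labelled SMA and 2279 of 10256 labelled Con held under 2000 UMIs. Shared barcodes were removed from the library labelled SMA alone, where they were 6509 of the 13296 cells that passed the filter.

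Most genes were at close to the same level in the OPCs of both libraries. Among 10494 genes with at least 100 UMIs over both, the median log2 ratio of SMA over Con was 0.01, the 5th and 95th percentiles were -0.42 and 0.45, and 93.3% lay within 0.5 of 0. A gene was counted as past the limit at a ratio of 1 or more in either direction, that is 2-fold. By this rule 42 genes (0.4%) were higher and 31 (0.295%) lower in the library labelled SMA. Of these, 28 and 28 were at a higher CPM in the other kept cells of both libraries than in the OPCs. Many were also concentrated in few cells. For 15 of the 42 higher genes the top 16 of the OPCs labelled SMA, or 1% of them, held 50% or more of the gene's UMIs there, and for 24 of the 31 lower genes the top 14 OPCs labelled Con did so. The genes that were spread over many OPCs are described first.

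**Figure D2:**
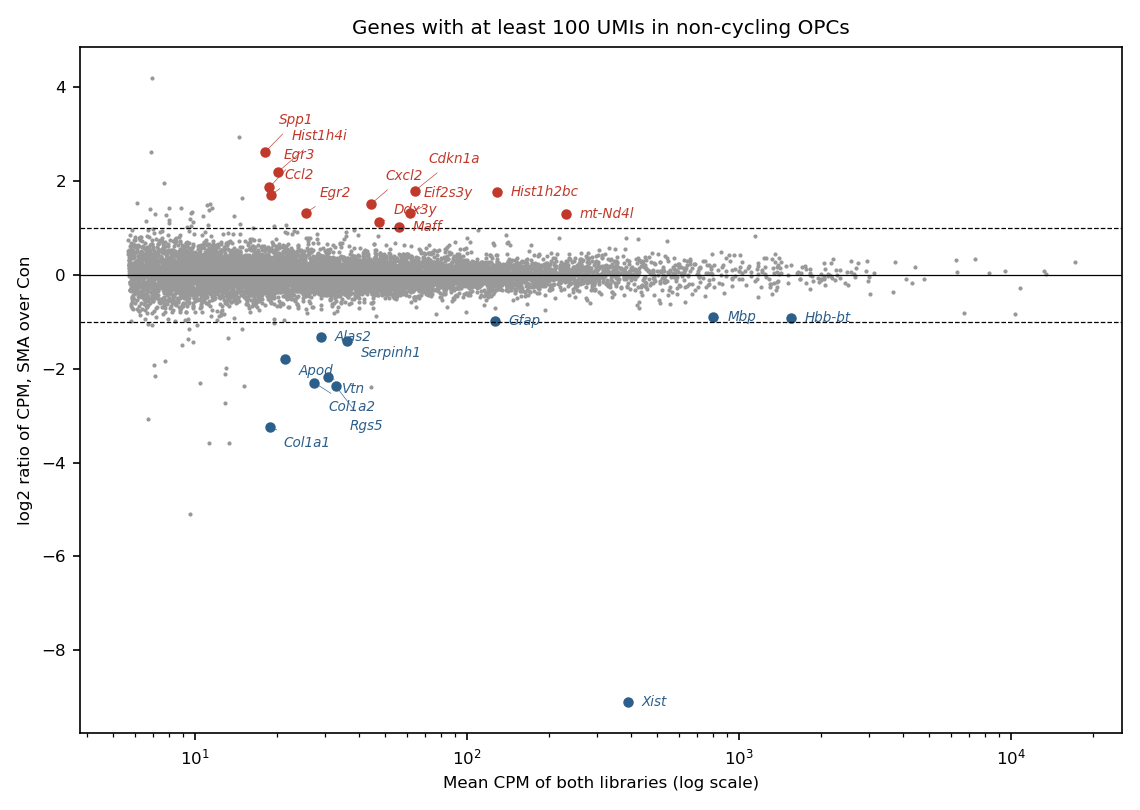
log2 ratio of CPM, SMA over Con, against mean CPM on a log axis for each gene with at least 100 UMIs in non-cycling OPCs. Most points lie near 0, with 42 genes at 1 or above and 31 at -1 or below, among them Cdkn1a at 1.78, Hist1h2bc at 1.77 and Xist at -9.10.

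OPC identity genes outside the rule stood on both sides of 0. Of 20, 11 were above and 9 below, none was past 2-fold, and the median log2 ratio was 0.06, with values from -0.84 to 0.48, beside a median of 0.01 over all genes. Serpine2, which encodes the protease inhibitor nexin-1, was at 2817 CPM labelled SMA and 2317 CPM labelled Con, a log2 ratio of 0.28 (0.25 to 0.31). Cspg5, which encodes neuroglycan C, was at 1505 and 1521 CPM, a ratio of -0.02 (-0.05 to 0.02). Ptprz1 had a ratio of 0.13 (0.09 to 0.18). Ptn, which encodes the growth factor pleiotrophin, a ligand of that receptor, had a ratio of 0.31, and its values in the cycling OPC, COP-like, astrocyte-like and microglia-like classes were 0.39, 0.90, 0.15 and 0.37. Scrg1, expressed widely in OPCs, was at 759 and 673 CPM, with a ratio of 0.17 (0.12 to 0.22). The member farthest from 0, singled out after its value was seen, was Rlbp1, which encodes a retinaldehyde-binding protein, at 55.0 and 98.7 CPM, a ratio of -0.84 (-1.01 to -0.68).

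Genes downstream of the PDGF receptor also stood near 0. Of 13 measured ligands and signal transducers of PDGF, 8 were above 0 and none was past 2-fold, with a median of 0.03. Pdgfa, the ligand itself, was at 64.8 and 63.6 CPM, and Pik3r1, the regulatory subunit of PI3-kinase, at 245 and 209 CPM, a ratio of 0.23 (0.14 to 0.32). Of 13 feedback and target genes of the ERK pathway, 9 were above 0 and the median was 0.15, with none past 2-fold. Spry2, a feedback inhibitor of receptor tyrosine kinases, was at 209 CPM labelled SMA and 134 CPM labelled Con, a ratio of 0.64 (0.53 to 0.75). Etv4, an ETS transcription factor induced by ERK, was at 76.6 and 104 CPM, a ratio of -0.45 (-0.59 to -0.30), and Ccnd1, which encodes cyclin D1, at 228 and 288 CPM, a ratio of -0.34 (-0.42 to -0.25). Within this list single members thus stood on both sides of 0 by more than their counting intervals.

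OPCs sense neuronal activity through glutamate and GABA receptors and voltage-gated channels. Of 21 measured receptor genes 15 were above 0, with a median of 0.05 and values between -0.27 and 0.37. Gria2, the AMPA receptor subunit that limits calcium entry, was at 296 and 265 CPM, a ratio of 0.16 (0.08 to 0.24). Gabrg1, a GABA-A receptor subunit, was at 102 and 84.0 CPM, a ratio of 0.28 (0.14 to 0.42). The 15 measured ion channel genes had a median of 0.03, and Kcnj10, the inward-rectifying potassium channel Kir4.1, was at 32.6 and 41.0 CPM, a ratio of -0.33 (-0.56 to -0.10). The 20 synaptic adhesion genes had a median of 0.02. Of 12 proteoglycan and tenascin genes 6 were above and 6 below 0, with a median of 0.02. Bcan, which encodes brevican, was at 734 and 885 CPM, a ratio of -0.27 (-0.32 to -0.22). No gene of these 4 lists was past 2-fold.

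Transcription factors of the lineage stood close to 0, with 14 of 22 measured genes below it, none past 2-fold and a median of -0.12. Olig1 had a ratio of -0.26 (-0.30 to -0.22), Olig2 of -0.15 (-0.23 to -0.06) and Sox10 of -0.17 (-0.26 to -0.08). Hes5, a Notch target that holds back differentiation, was at 301 and 249 CPM, a ratio of 0.28 (0.19 to 0.36), and Nfia, a gliogenic factor, had a ratio of 0.16 (0.07 to 0.24). The 15 measured Notch genes had a median of 0.13 with 10 above 0, and the 13 BMP receptor and Id genes a median of -0.01. Id3 and Id2, inhibitors of basic helix-loop-helix factors and targets of BMP signalling, were the lowest of the latter, at ratios of -0.49 (-0.59 to -0.40) and -0.38 (-0.49 to -0.28), while Id1 was at 0.34 (0.13 to 0.55). Of 6 measured patterning genes, 4 were above 0, and the lowest was Pax6 at a ratio of -0.68. Gsx1, a homeodomain factor of the dorsal cord, was at 66.6 CPM labelled SMA and 41.6 CPM labelled Con, a ratio of 0.68 (0.48 to 0.87). Nkx2-2, a ventral factor that also promotes oligodendrocyte differentiation, was at 140 and 189 CPM, a ratio of -0.44 (-0.54 to -0.33). The 23 measured Hox genes, which record position along the cord, had a median of -0.04, and Hoxa7 was at 122 CPM in each library.

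Genes of the onset of differentiation were lower in the OPCs labelled SMA as a list. Of 20 members, 17 reached 100 UMIs. All 17 were below 0, none was past 2-fold, and the median was -0.24. Their summed level was 2656 CPM labelled SMA and 3472 CPM labelled Con, a log2 ratio of -0.39 (-0.41 to -0.36). Bcas1, a marker of early myelinating oligodendrocytes, was at 325 and 529 CPM, a ratio of -0.70 (-0.77 to -0.64). Lims2, which encodes a focal adhesion protein, had a ratio of -0.63 (-0.74 to -0.52), and Sirt2, a deacetylase abundant in oligodendrocytes, was at 413 and 600 CPM, a ratio of -0.54 (-0.60 to -0.48). Gpr17, a receptor of the transition to committed precursors, was at 265 and 345 CPM, a ratio of -0.38 (-0.46 to -0.30). The genes Fyn, a kinase that acts early in myelination, and Cd9, a tetraspanin, had ratios of -0.26 and -0.20. By comparison, 48.9% of all genes tested were below 0. The summed list was also lower in the kept cells outside the OPCs, at 2685 and 3627 CPM. That pool includes COP-like cells, which held 15131 and 17101 CPM of the list and were a smaller share of the cells labelled SMA. In astrocyte-like cells the list was at 1982 and 2033 CPM, and in microglia-like cells at 1256 and 1330 CPM. Within the OPCs, markers of committed cells that the rule limited moved with the list. Bmp4 was at 12.8 and 26.1 CPM and had a UMI in 2.91% and 6.09% of the OPCs, and Enpp6 was at 2.94 and 11.1 CPM, in 1.01% and 2.49%. The part of cells close to commitment in the lower level of the list was not tested.

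Shares of positive cells were compared after thinning to 2000 UMIs. Bcas1 was found in 38.9% (36.5 to 41.4) of OPCs labelled SMA and 46.4% (43.7 to 49.0) labelled Con, against 3.95% and 8.30% of microglia-like cells. Gpr17 was found in 33.6% (31.2 to 36.0) and 35.6% (33.0 to 38.2), against 0.99% and 0.96%, so its share of positive cells did not differ beyond counting error. Without thinning, the Gpr17 shares were 60.1% and 60.2%, and those of Bcas1 66.7% and 72.8%. In the other classes the ratio of Bcas1 was -0.43 in cycling OPCs, -0.68 in COP-like, -1.16 in astrocyte-like and -0.88 in microglia-like cells. Bcas1 was thus also lower labelled SMA in microglia-like cells, which held 36.4 and 67.1 CPM of it, and the part of such background RNA in the difference between the OPCs was not tested.

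Myelin genes were lower as well, with 10 of 11 measured members below 0, none past 2-fold and a median of -0.60. Mbp, which encodes myelin basic protein, was at 559 CPM labelled SMA and 1047 CPM labelled Con, a ratio of -0.91 (-0.96 to -0.86). Cnp, an enzyme of the myelin cytoplasm, was at 440 and 678 CPM, a ratio of -0.62 (-0.68 to -0.57). The exception was Ugt8a, an enzyme of galactolipid synthesis, at 60.1 and 58.1 CPM. These levels stood close to those of cells that should lack myelin RNA. The summed list was at 1589 and 2541 CPM in the OPCs and at 1780 and 1900 CPM in microglia-like cells, and Mbp alone was at 730 and 1013 CPM in the latter. Thinned, Mbp was found in 43.5% and 57.8% of OPCs and in 36.1% and 48.4% of microglia-like cells. In COP-like cells, where myelin genes summed to 28405 and 25191 CPM, Mbp had a ratio of -0.02. With the shared barcodes kept, the median of the myelin list in the OPCs was 0.01. The lipids of myelin need cholesterol, and the 23 genes of its synthesis had a median of -0.16, with 14 below 0 and a sum of 4371 and 4413 CPM.

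**Figure D3:**
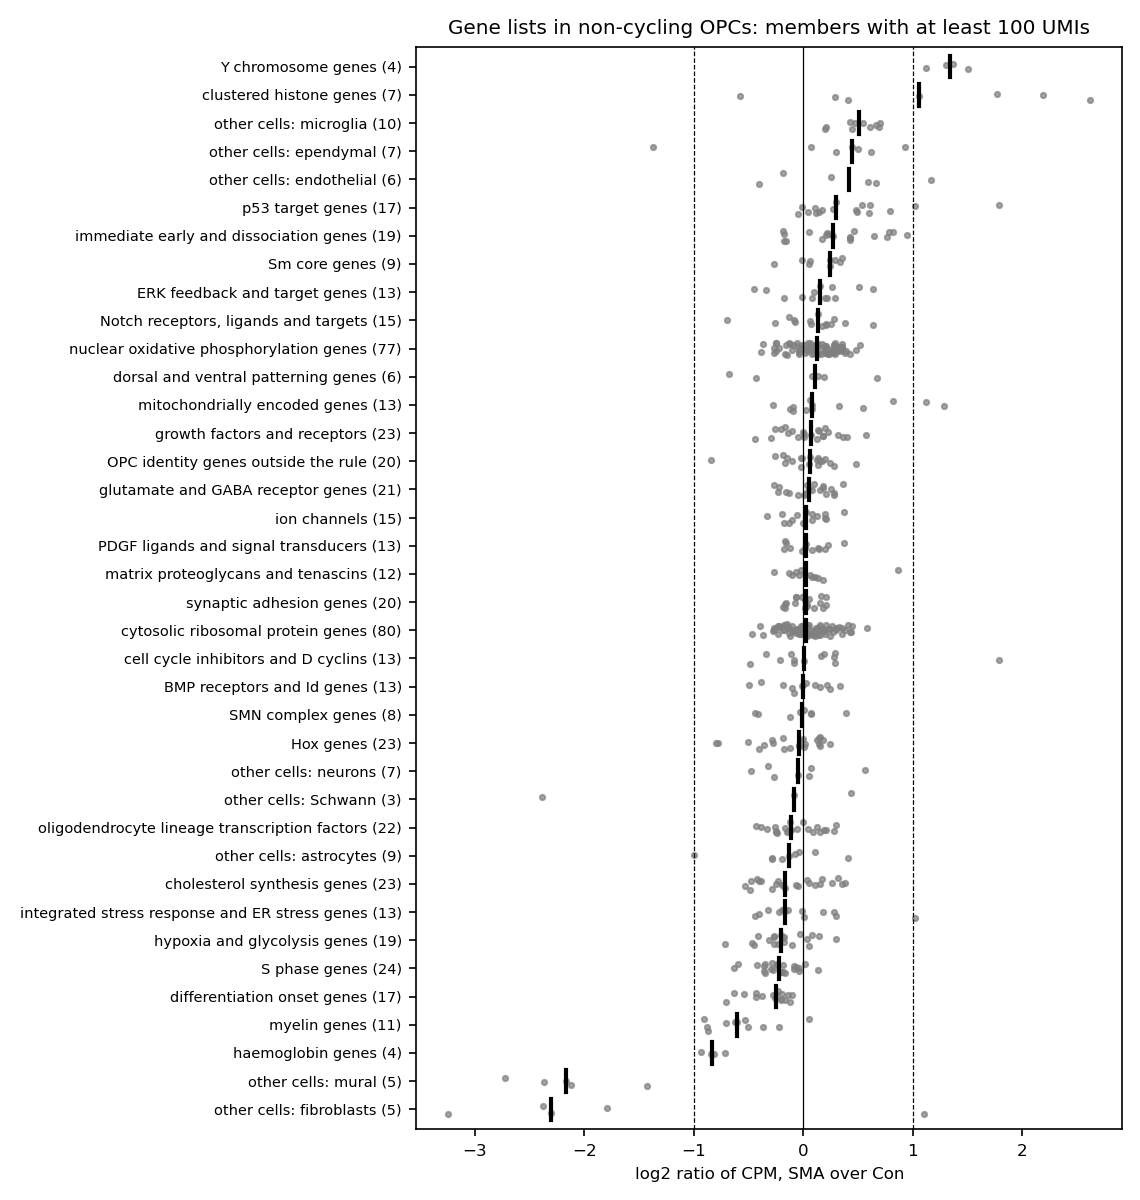
Each dot is the log2 ratio of CPM, SMA over Con, of 1 gene with at least 100 UMIs in non-cycling OPCs, with 1 line per gene list of 3 or more such genes, with a bar at the list's median and dashed lines at the 2-fold limits. The medians ran from -2.30 for fibroblast genes and -2.17 for mural genes to 1.05 for clustered histone genes and 1.34 for Y chromosome genes, with most lists near 0.

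Cdkn1a (GRCm38 chromosome 17, 29090976 to 29100727, plus strand, protein-coding), which encodes the cell cycle inhibitor p21 and is induced by p53, was 1 of the genes with the highest ratios whose UMIs were not held by a few cells. It was at 99.3 CPM labelled SMA (913 UMIs in 384 cells) and 28.8 CPM labelled Con (239 UMIs in 150 cells), a log2 ratio of 1.78 (1.58 to 1.996). The top 16 and top 14 cells held 24.2% and 26.4% of its UMIs. Its ratio was 1.00 (0.76 to 1.25) in cycling OPCs, 2.23 (1.75 to 2.72) in COP-like, 1.71 (1.58 to 1.83) in astrocyte-like and 0.64 (0.55 to 0.72) in microglia-like cells, so it was higher in the library labelled SMA in all 5 classes. Against the 332 OPCs labelled Con with a Y gene and no Xist, a comparison chosen after the data were seen, its ratio was 1.84 (1.46 to 2.25).

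Other p53 targets were higher by less. Of 17 measured members, 15 were above 0, 2 were past 2-fold and the median was 0.30, and the summed list was at 1317 and 1019 CPM. The list held Cdkn1a itself. The other member past the limit was Sesn2, a stress-induced inhibitor of growth signalling, at 12.5 and 6.15 CPM, a ratio of 1.02 (0.54 to 1.53). Bax, a pro-apoptotic member of the Bcl2 family, was at 435 and 354 CPM, a ratio of 0.30 (0.23 to 0.37). Phlda3, an inhibitor of Akt, was at 97.0 and 69.0 CPM, a ratio of 0.49 (0.34 to 0.65), and Plk2, a polo-like kinase, at 86.5 and 61.9 CPM, a ratio of 0.48 (0.32 to 0.65). Btg2 and Ei24 were at ratios of 0.17 and 0.05. Summed over the list, cycling OPCs were at 1298 and 1103 CPM, astrocyte-like cells at 2085 and 1686 CPM, and microglia-like cells at 2226 and 2257 CPM.

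Genes of the S phase, which the rule did not use, were slightly lower. Of 24 measured members 22 were below 0, none was past 2-fold and the median was -0.22. Their sum was 804 CPM labelled SMA and 897 CPM labelled Con, beside 2629 and 2870 CPM in cycling OPCs, 301 and 318 CPM in COP-like, 407 and 403 CPM in astrocyte-like and 597 and 515 CPM in microglia-like cells. Their level in the OPCs called non-cycling was thus below that of cycling OPCs and above that of the other 3 classes. Mcm6, a subunit of the replicative helicase, was at 35.7 and 53.9 CPM, a ratio of -0.60 (-0.81 to -0.39), and Pcna, the sliding clamp of DNA polymerase, was at 104 and 102 CPM. The inhibitors and D cyclins did not move as 1 group, with 7 above and 6 below 0 and a median of 0.01. Cdkn1c, which encodes the inhibitor p57, was at 208 and 291 CPM, a ratio of -0.48 (-0.57 to -0.40), opposite in sign to that of Cdkn1a.

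Clustered histone genes gave the highest median of any list other than the Y chromosome genes. Only 7 of 67 reached 100 UMIs, of which 6 were above 0 and 4 were past 2-fold, with a median of 1.05, and the list's sum was 585 and 316 CPM. Replication-dependent histone mRNAs normally end at a conserved stem-loop, without a poly(A) tail, so a library primed on poly(A) sees them chiefly through transcripts that extend beyond it. The 16-base stem-loop, a 6-base stem around a 4-base loop, was searched on the sense strand of the annotated 3′ UTRs. Some form of it was in a 3′ UTR of 44 of the 67 genes, and in 6 of the 7 measured ones. It is shown, from GENCODE M21 transcripts, for the 3 measured genes past 2-fold that carry it, with the loop in capitals.
Hist1h4h: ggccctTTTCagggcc
Hist1h4i: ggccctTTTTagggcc
Hist1h1c: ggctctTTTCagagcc
After this element the annotated transcripts went on for 46 bases in Hist1h4h, 330 in Hist1h4i and 840 in Hist1h1c. Searched over whole transcripts rather than 3′ UTRs alone, the same pattern was found in 52 of 21877 protein-coding genes (0.238%).

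Hist1h4i (chromosome 13, 22040636 to 22041362, minus strand), 1 of several genes for histone H4, was at 33.1 CPM labelled SMA and 7.24 CPM labelled Con, a ratio of 2.19 (1.79 to 2.62). Hist1h4h (chromosome 13, 23531050 to 23531519, plus strand) was at 11.9 and 1.93 CPM, a ratio of 2.62 (1.85 to 3.48). Hist1h1c, which encodes a linker histone, was at 29.0 and 14.0 CPM, a ratio of 1.05 (0.73 to 1.38). Hist1h2bc (chromosome 13, 23684199 to 23692908, plus strand), a histone H2B gene in whose annotated 3′ UTR the element was not found, was at 198 and 58.1 CPM, a ratio of 1.77 (1.63 to 1.92), and its UMIs lay in 908 and 337 cells. The other measured members were closer to 0. Hist3h2ba and Hist3h2a had ratios of 0.41 and 0.29, and Hist1h1e, at 6.85 and 10.3 CPM, of -0.58. Histone genes have near-identical copies between which reads can be divided, so the values of single copies are uncertain.

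The same genes were higher in the other classes too. Hist1h2bc had ratios of 2.36 in cycling OPCs, 1.13 in COP-like, 1.47 in astrocyte-like and 1.65 in microglia-like cells, and Hist1h4i of 1.66, 1.65, 2.22 and 1.97. Thinned, Hist1h2bc was found in 29.5% and 11.2% of OPCs, 50.8% and 24.0% of astrocyte-like and 27.8% and 10.1% of microglia-like cells. The part of free RNA in its OPC values was not tested. The summed list was at 2138 and 1110 CPM in cycling OPCs, 748 and 321 CPM in astrocyte-like and 435 and 174 CPM in microglia-like cells. Against the Con OPCs with a Y gene and no Xist, Hist1h2bc had a ratio of 1.85 (1.58 to 2.14). Slbp, whose product binds the stem-loop, was at 107 and 110 CPM, a ratio of -0.04 (-0.17 to 0.09).

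Immediate early genes are induced within minutes by growth factors and activity, and also by the warm dissociation of tissue. As a list they were higher in the OPCs labelled SMA. Of 19 measured members 15 were above 0, none was past 2-fold and the median was 0.27, while the sum was 5205 CPM labelled SMA and 3756 CPM labelled Con. Fos, a subunit of the AP-1 transcription factor, was at 1461 and 826 CPM, a ratio of 0.82 (0.78 to 0.86). Junb was at 535 and 314 CPM, a ratio of 0.77 (0.70 to 0.84), and Jun at 518 and 431 CPM, a ratio of 0.27 (0.20 to 0.33). Outside the list, Egr3 and Egr2, transcription factors induced in the same way, were past the limit, at 29.4 and 8.08 CPM, a ratio of 1.86 (1.47 to 2.27), and at 36.3 and 14.6 CPM, a ratio of 1.32 (1.01 to 1.63). Maff, a small Maf factor, was at 74.8 and 37.2 CPM, a ratio of 1.01 (0.81 to 1.21).

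These ratios were not alike in the classes. Fos had ratios of 0.92 in cycling OPCs and 0.94 in COP-like cells, but of 0.23 in astrocyte-like and -0.21 in microglia-like cells. Egr2 had ratios of 1.20 and 1.36 in the first pair and of -0.07 and -0.01 in the second. Egr3 was at 1.58, 1.44, 0.47 and 0.34 in the same order. Its COP-like value rests on few cells, as Egr3 lay in 10 of 261 labelled SMA and 7 of 655 labelled Con. The ratios of these 3 genes were thus near each other in the classes of the oligodendrocyte lineage and nearer 0 in the others, a difference that was not tested.

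**Figure D4:**
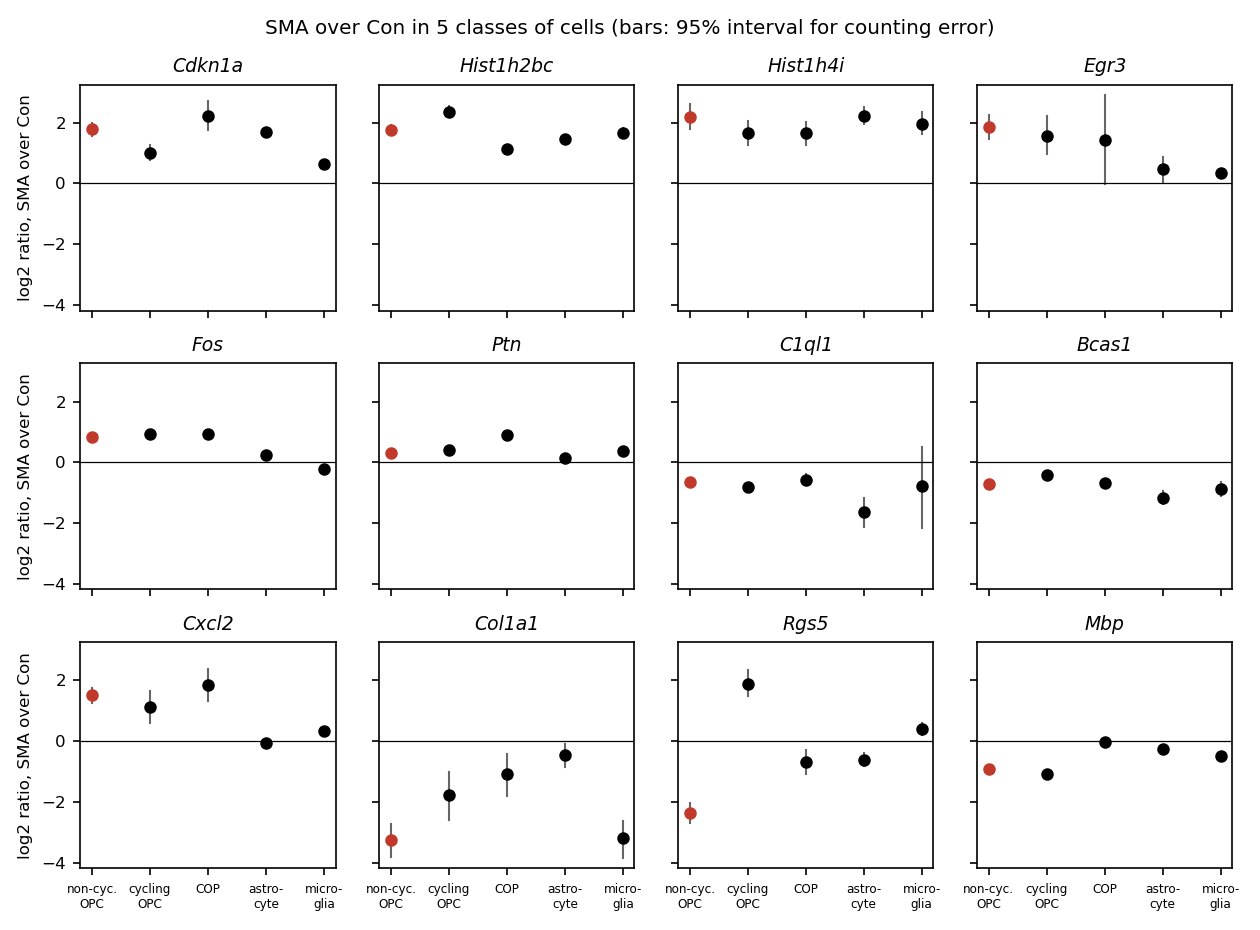
log2 ratio of CPM, SMA over Con, of 12 genes in 5 classes, with non-cycling OPCs in red and bars for the 95% interval of counting error. Hist1h2bc lies between 1.13 and 2.36 in every class, while Fos lies at 0.82 to 0.94 in the 3 oligodendrocyte lineage classes and at 0.23 and -0.21 in astrocyte-like and microglia-like cells.

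Genes of RNA processing and metabolism showed small ratios. The 8 measured SMN complex genes had a median of -0.01 with 4 on either side of 0. The 9 Sm core genes comprise those of the Sm proteins, which the SMN complex loads onto spliceosomal RNAs, and Lsm10 and Lsm11 of the U7 particle, which processes the 3′ ends of histone mRNAs. Of them 7 were above 0, with a median of 0.24. Snrpg and Snrpe had ratios of 0.36 (0.28 to 0.44) and 0.29 (0.22 to 0.37), while Lsm10 was at -0.27 (-0.57 to 0.04) and Lsm11 at 0.24 (-0.14 to 0.63), both within counting error of 0. Ribosomal protein genes made up 12.6% and 12.3% of OPC UMIs. Nuclear genes of oxidative phosphorylation had a median of 0.12, with 54 of 77 above 0. Of 19 hypoxia and glycolysis genes 14 were below 0, with a median of -0.21, and Gapdh was at 1218 and 1516 CPM, a ratio of -0.32 (-0.35 to -0.28). None of the genes in these lists was past 2-fold. Of 13 measured genes of the integrated stress response 9 were below 0, with a median of -0.17, and Sesn2 was the one past the limit. The 23 growth factor and receptor genes had a median of 0.07. Among 13 mitochondrially encoded genes, with a median of 0.08, 2 were past the limit. These were mt-Nd4l, a subunit of complex I, at 326 and 134 CPM, a ratio of 1.28 (1.18 to 1.39), and mt-Nd6 at 13.4 and 6.15 CPM, a ratio of 1.12 (0.64 to 1.62). mt-Nd4l overlaps mt-Nd4, which was at 4640 and 4947 CPM, and mt-Nd6 lies opposite other mitochondrial transcripts, so reads of both are uncertain.

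Several of the genes farthest from 0 belong to other cells and lay in few OPCs. Spp1, which encodes osteopontin, was at 31.1 CPM labelled SMA and 5.07 CPM labelled Con, a ratio of 2.62 (2.15 to 3.12), but 16 cells held 95.1% of its UMIs labelled SMA. The chemokine genes Cxcl2 and Ccl2 had ratios of 1.51 (1.27 to 1.75) and 1.70 (1.32 to 2.09), with 92.5% and 77.1% of their UMIs labelled SMA in 16 cells. All 10 microglial marker genes were higher in the OPCs labelled SMA, with a summed level of 873 CPM against 606 CPM, a median of 0.51 and none past 2-fold. Microglia-like cells held 25785 and 25772 CPM of the list. Such UMIs were in 46.5% and 44.1% of the OPCs, and the top 1% of OPCs held 44.6% and 55.1% of them. In the 1390 and 1213 OPCs that had at most 5 UMIs of microglial, endothelial, fibroblast and mural markers, a selection made after the data were seen, Spp1 had a ratio of 0.97, Ccl2 of 0.52 and Cxcl2 of -1.10.

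Genes of fibroblasts and of mural cells, which wrap vessels, were lower in the OPCs labelled SMA. Col1a1, a collagen gene, was at 3.59 CPM labelled SMA and 33.9 CPM labelled Con, a ratio of -3.24 (-3.81 to -2.72), and Col1a2 at 9.24 and 45.6 CPM, a ratio of -2.30 (-2.66 to -1.96). Rgs5, a pericyte gene, was at 10.7 and 54.9 CPM, a ratio of -2.36 (-2.69 to -2.05), and Vtn, which encodes vitronectin, at 11.2 and 50.4 CPM, a ratio of -2.17 (-2.50 to -1.86). The top 14 OPCs labelled Con held 91.1% of their Col1a1 UMIs and 92.3% of their Rgs5 UMIs. Of the 10 fibroblast markers 9, and of the 10 mural markers all 10, were lower, and the lists were found in 13.2% and 10.7% of OPCs labelled SMA and 17.6% and 14.5% labelled Con.

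Apod, a lipid carrier of fibroblasts and glia, was also lower, at 9.57 and 33.2 CPM, a ratio of -1.79 (-2.16 to -1.44). A single cell held 162 of its 275 UMIs labelled Con and 14 cells held 82.9%, and the ratio was -0.59 in cells with 4 or more OPC markers and 0.40 with the mitochondrial limit of 5%. Serpinh1, a collagen chaperone gene, had a ratio of -1.41 (-1.66 to -1.15) and lay in 130 and 188 cells. Gfap, the intermediate filament gene of astrocytes, was at 84.2 and 168 CPM, a ratio of -0.995 (-1.12 to -0.87), with 77.2% of the UMIs labelled Con in 14 cells, and a ratio of -0.05 without OPCs that held over 5 UMIs of the vascular and microglial lists. Astrocyte markers as a list were at 972 and 973 CPM. Markers of neurons summed to 544 and 606 CPM and of ependymal cells to 104 and 87.0 CPM, and of the markers of other cells looked at, Slc17a6, which encodes a vesicular glutamate transporter, was the one at 0 in a library, that labelled Con.

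Haemoglobin RNA, which erythroid cells make, was at 13448 CPM labelled SMA and 24063 CPM labelled Con in the OPCs. All 4 genes were lower, with a median of -0.83 and none past 2-fold, and Hbb-bt had a ratio of -0.93 (-0.97 to -0.89). The list was found in 67.1% of OPCs labelled SMA and 90.2% labelled Con, but the top 1% of cells held 85.3% and 59.7% of its UMIs, so the summed levels rest on few cells. In COP-like cells the order was the opposite, at 12670 and 10195 CPM. Alas2, an enzyme of haem synthesis in erythroid cells, had a ratio of -1.32 (-1.60 to -1.04). Genes of the sex chromosomes also differed. Xist, the RNA of the inactive X chromosome, was at 1.41 and 777 CPM, a ratio of -9.10 (-10.01 to -8.33), and all 4 measured Y genes were past 2-fold, with a median of 1.34, Ddx3y at 1.12 and Eif2s3y at 1.31. Sex and genotype differ together in these sums. The comparison beside Cdkn1a and Hist1h2bc set all 1582 OPCs labelled SMA against 332 labelled Con with a Y gene and no Xist. Only the Con side was selected, and 596 of the OPCs labelled SMA had neither RNA. The sets therefore differed in Y genes, with Ddx3y at -0.67 and Eif2s3y at -0.47. Of the 42 higher and 31 lower genes, 21 and 13 were past 2-fold in that comparison. Among the others, Maff was at 0.67 and Ccl2 at 0.52.

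The OPCs also varied among themselves. Split by Gpr17 after thinning to 2000 UMIs, 526 of 1567 OPCs labelled SMA and 483 of 1357 labelled Con had a Gpr17 UMI, of which 355 and 288 had exactly 1, so the split separates cells by chance as well as by level. Among 6738 genes with at least 50 UMIs in each library and outside the rule, 11 (0.163%) were 2-fold or more higher in the cells with Gpr17 in both libraries and 7 (0.104%) were 2-fold or more lower. Several of the genes named by the rule are known from the step to committed precursors. Myrf, the master regulator of myelin genes, was higher by log2 ratios of 1.71 (0.98 to 2.47) labelled SMA and 2.05 (1.20 to 2.97) labelled Con. Neu4, a sialidase of this stage, was higher by 2.06 and 1.53, Cdkn1c by 1.33 and 1.51, Nkx2-2 by 1.05 and 1.18, Sirt2 by 1.10 and 1.09, and Bcas1 by 1.01 and 1.06. Fa2h, which hydroxylates myelin lipids, was higher by 1.11 and 1.39, and Tubb4a, a tubulin of oligodendrocytes, by 1.14 and 0.98. Pak4, a kinase of the cytoskeleton, and Cyfip2, of the actin-regulating WAVE complex, were at 1.46 and 1.82 and at 1.31 and 1.25.

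The 12 genes that were lowest in OPCs with Gpr17 included genes of DNA replication and of microglia. The S phase genes Hells, Mcm3 and Ung had log2 ratios of -1.21, -1.50 and -1.24 labelled SMA and -1.52, -1.13 and -1.44 labelled Con. The microglial genes P2ry12, Csf1r and Ctss were at -1.52, -1.04 and -1.11 and at -1.66, -1.62 and -0.92, from at most 111 UMIs in any set. Gsx1 was at -0.81 (-1.29 to -0.35) and -0.77 (-1.39 to -0.19). As lists, S phase genes were at -0.44 and -0.78, genes of the onset of differentiation other than Gpr17 at 0.94 and 0.96, myelin genes at 0.53 and 0.41, and ERK feedback genes at -0.27 and -0.37. Markers of other cells also differed between the sets, with microglial markers at -0.66 and -0.97, astrocyte markers at -0.38 and -0.61, Schwann cell markers at -0.36 and -0.42, mural markers at 1.30 and -0.88, fibroblast markers at 0.11 and -1.17 and haemoglobin genes at -0.17 and -1.01, and their part in the differences was not tested. OPC identity genes stood at -0.04 and -0.03, so cells with and without Gpr17 had these genes at nearly the same level. The lower level of onset genes labelled SMA was seen in both sets of cells. They summed to 3419 CPM labelled SMA and 4267 CPM labelled Con in cells with Gpr17, and to 1782 and 2187 CPM in cells without.

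**Figure D5:**
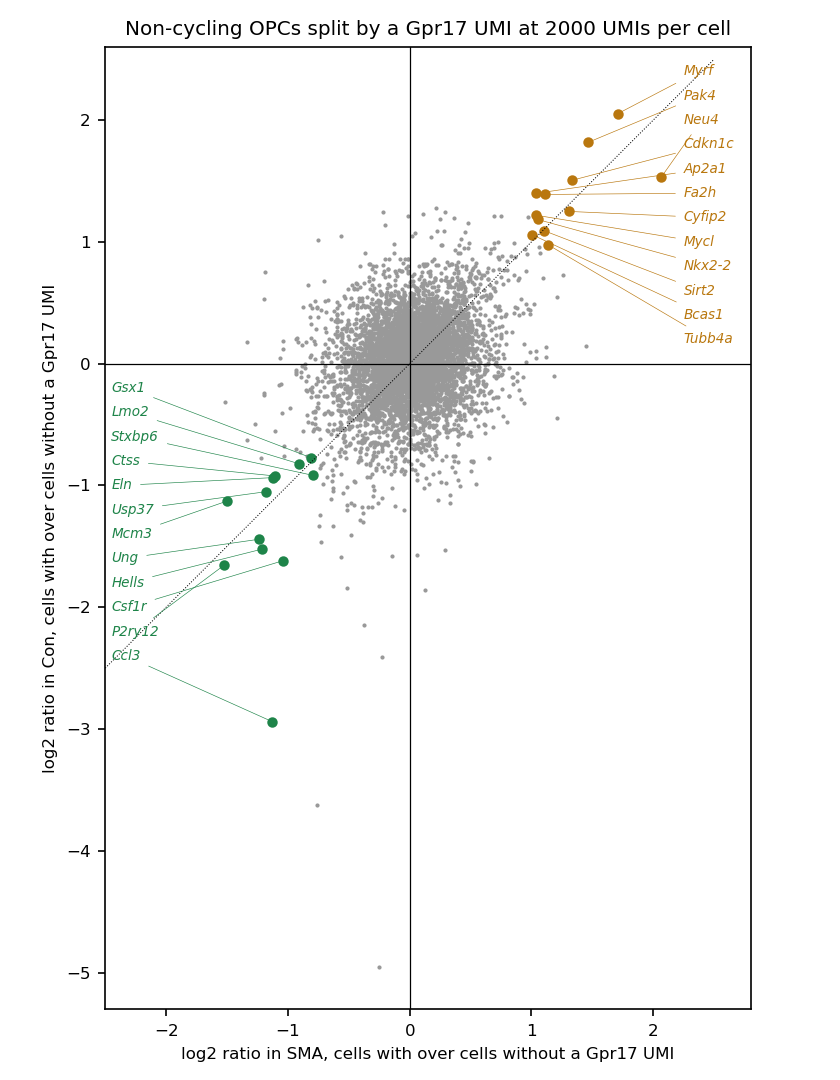
Each dot is a gene's log2 ratio of CPM in non-cycling OPCs with over those without a Gpr17 UMI, with the library labelled SMA on the horizontal and the library labelled Con on the vertical axis. Myrf at 1.71 and 2.05 and Neu4 at 2.06 and 1.53 stand at the upper right, and P2ry12 at -1.52 and -1.66 and Hells at -1.21 and -1.52 at the lower left.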

How the data were processed

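Whole spinal cord cells were sequenced with 10x Genomics 3′ chemistry, and the deposited files hold raw UMI counts per gene and barcode, which the authors had produced with Cell Ranger (version 4.0.0 per the file headers) on mm10 per the labels. The authors had filtered barcodes before deposit and had used Seurat 3.2.2 afterwards. No doublet caller was run here, and the limit of 4000 genes was taken as the guard against doublets. Groups came from the labels. The classes for comparison were selected by their own markers (3 or more with a UMI, at most 1 marker of other cells).

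For each class and library, the UMIs of all cells were added up and scaled to CPM. Ratios have exact conditional binomial intervals and shares Clopper-Pearson intervals, at 95%. Genes with at least 100 UMIs over both libraries were compared. The cells and gene lists were chosen with earlier results of these data known. Named genes were the 12 with the highest lower bound and the 12 with the lowest upper bound among those with at least 300 UMIs, list members past 2-fold, and up to 6 members of a list with most UMIs. For the Gpr17 split they were the 12 genes most extreme in both libraries in each direction, and any other gene was chosen after its value was seen. A gene that the rule named is not reported here. Positions and sequences were read from the GENCODE M21 annotation (GRCm38), where 10658 of 10664 gene identifiers were found. Python 3.11.15, numpy 2.4.6, scipy 1.17.1 and pandas 2.3.3 were used, and the code was tested on simulated data. Alternatives are named with their effect at the end.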

Additional observations from a re-analysis of the deposited data

Results flagged for a closer look

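The 499 barcodes labelled SMA that were also listed in the library labelled Con and met the OPC rule, which the comparisons left out, held Xist at 678 CPM, against 1.41 CPM in the OPCs labelled SMA that were kept and 777 CPM in those labelled Con. They drew attention because this is a signal in cells outside the main measurement. Their median depth was 1206 UMIs, a median of 17.8% of the UMIs of the same barcode labelled Con, and for 313 of them the copy labelled Con was itself counted as a non-cycling OPC.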

How the results depend on the processing

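The log2 ratio of the OPC share was 0.81. It became 0.23 with shared barcodes kept, 1.72 with a mitochondrial limit of 5%, 0.45 with at least 3000 UMIs and 0.36 with cells thinned before the rule. The counts of 42 higher and 31 lower genes became 19 and 4 with the 5% limit (178 and 152 cells), 11 and 14 after thinning, 90 and 77 at a minimum of 50 UMIs and 14 and 10 at 300 UMIs. A pair of alternatives was chosen after seeing the data. Against Con cells with a Y gene and no Xist, 90 genes were higher and 33 lower, and without OPCs of over 5 UMIs of vascular and microglial markers 31 were higher and 9 lower. Many of these were different genes. Of the 42 and 31, 21 and 13 were past the limit in the first case, 23 and 6 in the second, 6 and 3 after thinning and 7 and 3 with the 5% limit. With 4 or more markers 48 genes were higher and 25 lower, of which 33 and 18 were among them, and with each cell weighted equally 45 and 33, of which 39 and 29 were. Shared barcodes kept (39 and 32), at least 3000 UMIs (42 and 32), centring on the median gene (42 and 32) and totals without haemoglobin and mitochondrial genes (41 and 33) changed the counts little. Col1a2 turned to 0.027 and Apod to 0.40 with the 5% limit, and Cxcl2 to -1.10 without those OPCs. Against the Con cells with a Y gene, the Y genes turned to a median of -0.41, Eif2s3y to -0.47 and Ddx3y to -0.67, which the selection itself brings about. For the others the cause was not tested. Cdkn1a stayed between 1.32 and 2.19, and Hist1h2bc between 1.68 and 2.17, under every alternative. No paired analysis was possible because each group is 1 library. Depth limits genes under 100 UMIs, and the 1 library per group limits every ratio.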

Other observations

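A second split, chosen after the data were seen, divided the OPCs by a Cdkn1a UMI after thinning to 2000 UMIs. Such a UMI was in 189 of 1567 OPCs labelled SMA (12.1%) and in 68 of 1357 labelled Con (5.01%), of which 131 and 57 had exactly 1, so the values labelled Con rest on few cells. Cdkn1a is also made by other cells, as 41.2% and 30.0% of thinned microglia-like cells had a UMI. The other p53 target genes summed to 2243 CPM in OPCs with Cdkn1a and 1095 CPM in those without labelled SMA, a log2 ratio of 1.03 (0.92 to 1.15), and to 1346 and 968 CPM labelled Con, a ratio of 0.48 (0.25 to 0.69). Markers of other cells also differed between the OPCs with and without Cdkn1a. Microglial markers were at 0.93 (0.65 to 1.21) and Schwann cell markers at 0.87 (0.55 to 1.18) labelled Con, against 0.0046 (-0.19 to 0.20) and 0.07 (-0.21 to 0.33) labelled SMA, and mural markers at -3.37 (-6.42 to -1.51) labelled Con against 0.94 (0.17 to 1.64) labelled SMA. Astrocyte and ependymal markers were at 0.33 (0.18 to 0.48) and 0.84 (0.36 to 1.30) labelled SMA. Their part in the differences was not tested. Aen, an exonuclease gene induced by p53, had ratios of 1.60 and 1.11. Clustered histone genes, which were also higher labelled SMA, were at ratios of 0.05 (-0.16 to 0.25) and 0.18 (-0.26 to 0.59), so they did not differ between OPCs with and without Cdkn1a beyond counting error. Immediate early and dissociation genes were at 0.28 (0.22 to 0.35) and 0.33 (0.21 to 0.45), so they were higher in OPCs with Cdkn1a in both libraries, and the part of handling in the p53 target values was not tested. Genes of the onset of differentiation were at -0.18 (-0.28 to -0.08) and -0.34 (-0.49 to -0.18). S phase genes were at -0.04 (-0.22 to 0.13) labelled SMA and 0.47 (0.24 to 0.70) labelled Con. Haemoglobin genes were lower in OPCs with Cdkn1a, at -1.95 (-2.05 to -1.85) and -3.75 (-3.996 to -3.51).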
